A study of Mus musculus with 6 samples.

Results

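*Lck*, *Fyn*, *Zap70*, *Tec*, *Lat*, *Lcp2*, *Plcg1*, *Ptk2b* and *Vav1* encode the kinases, adaptors and first effector proteins that act directly below the T cell receptor (TCR). They were chosen by gene symbol and role, with earlier results of these data known, and are 9 of the 23183 gene symbols in the mRNA-seq tables of thymocytes with and without NSrp70. All 9 also passed the filter on low values that left 10326 genes for testing. Members of this group moved in different directions in NSrp70-cKO double positive (DP) thymocytes. The mRNA of *Fyn*, *Plcg1* and *Ptk2b* fell to 48.2, 48.1 and 49.1% of the WT mean, that of *Lcp2* rose to 154% of it, and the other members did not pass the test. The rise of *Lcp2* depended on how the libraries were scaled. With all libraries at the same summed value it did not pass. There 7 of the 9 were lower and 0 higher, beside 59.9% and 8.74% of all genes tested.

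When the TCR binds peptide and MHC, the Src family kinases Lck and Fyn phosphorylate the tails of the CD3 and zeta chains, and ZAP-70 docks there and is activated. ZAP-70 phosphorylates the adaptors LAT and SLP-76, which gather PLCγ1, Vav1 and Tec family kinases into a complex that starts calcium release, Ras activation and actin remodelling. In DP thymocytes, the immature T cells that carry both CD4 and CD8, the strength of this signal decides between positive selection, death by neglect and negative selection.

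The WT group was *Nsrp1* f/f (labelled NSRP1f/f) and the cKO group *Nsrp1* f/f CD4Cre (labelled NSRP1f/fCD4Cre), with 3 libraries of CD4+CD8+ thymocytes each, from the thymus of C57BL/6 mice 6 weeks old. Both groups carried the floxed *Nsrp1* allele, and the Cre recombinase, which regulatory elements of CD4 switch on in developing thymocytes, was absent from WT. The CD4Cre transgene and the loss of *Nsrp1* therefore cannot be told apart here. The labels do not state whether libraries came from separate animals, so p-values measure the spread between these libraries only.

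Values are FPKM, mapped fragments divided by transcript length and by library depth, which can be compared between genes because they are given per length. The depth was estimated at 20.7 M fragments in each WT library (M, mega) and at 13.2 to 20.6 M in cKO. The FPKM of all genes summed to 521296 to 531517 in WT and to 701396 to 850548 in cKO. *Nsrp1*, listed under its older symbol *Ccdc55*, had an FPKM of 20.2, 20.7 and 21.1 in WT and of 17.7, 15.8 and 15.002 in cKO, a log2 fold change of -0.34 (SE 0.077, adjusted p = 0.00675 from limma). That value covers the whole gene and not the deleted exons alone. The WT libraries differed little beyond counting noise (chi-square per gene of 1.5 to 1.61 for pairs of WT libraries against 27.1 to 61.9 for pairs of cKO libraries). The groups also differed in *Xist* (69.8 to 72.0 in WT, 4.07 to 5.44 in cKO) and in 4 genes of chromosome Y (*Uty*, *Kdm5d*, *Eif2s3y* and *Ddx3y*), all at 0 in each WT library and above 0 in each cKO library, so genotype and the sex of the mice cannot be told apart.

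Markers matched the DP label, since all 9 DP genes listed were above an FPKM of 1 in every library, with sums of 5075 to 5161 in WT and 7025 to 9183 in cKO. Among 9 markers of mature single positive T cells, none at 0 in all libraries, 7 were called lower in cKO (*Ccr7*, *S1pr1*, *Klf2*, *Il7r*, *Cd40lg*, *Itgb7* and *Gimap3*) and 1 higher, with sums of 153 to 155 in WT and 113 to 141 in cKO. Sums of 5 erythroid markers were 1.97 to 2.73 in WT and 12.4 to 26.6 in cKO. Of 5 double negative thymocyte markers, 3 of the 4 tested were lower. Among all genes tested, 29.8% were called lower and 35.8% higher. Sums of 7 thymic epithelial and stromal markers were 3.59 to 4.12 in WT and 1.95 to 3.72 in cKO, nearly all of it *Epcam*, with *Krt5* and *Foxn1* at 0 in all libraries. In bulk samples, fewer cells of a type and less RNA per cell cannot be told apart, and the part these cells have in the results below was not tested.

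The levels of the 9 genes covered a wide range in WT thymocytes. *Lck* and *Lat* were near an FPKM of 1000, *Zap70*, *Lcp2* and *Vav1* near 100, *Plcg1*, *Fyn* and *Ptk2b* near 50, and *Tec* was lowest. In that order no 2 neighbours overlapped between WT libraries, although *Lck* (1012 to 1019) and *Lat* (994 to 1011) almost met. In cKO, *Lcp2* stood above *Zap70* with no overlap, while *Lck* and *Lat* overlapped, as did *Zap70* and *Vav1*, and *Plcg1*, *Fyn* and *Ptk2b* overlapped with each other. The estimated number of fragments behind a single value ran from 417 (*Tec* in cKO 1) to 45430 (*Lck* in cKO 2), which gives a counting error of 4.9% and 0.47%, and counting error is only part of the error.

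**Figure D1:**
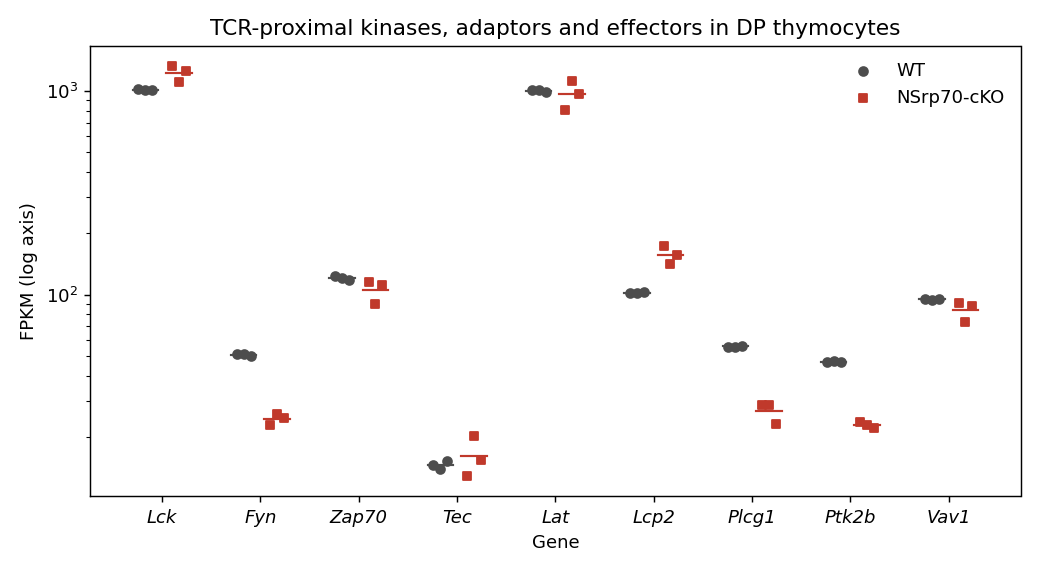
FPKM of the 9 genes in each library on a log axis, with circles for the 3 WT libraries, squares for the 3 NSrp70-cKO libraries and a bar at each group's mean. The cKO squares of *Fyn*, *Plcg1* and *Ptk2b* lie well below the WT circles, those of *Lcp2* lie above, and those of *Tec* and *Lat* spread to both sides.

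Lck, the kinase that CD4 and CD8 bring to the receptor, was the most abundant of the 9 mRNAs. The FPKM of *Lck* (chr4:129548344-129573641, minus strand, GRCm38) was 1019, 1015 and 1012 in WT 1, 2 and 3 and 1321, 1112 and 1248 in cKO 1, 2 and 3. Every cKO library was thus above every WT library, with cKO 2 the closest. The log2 fold change of 0.27 (SE 0.113, 95% interval 0.00 to 0.53) did not pass the test (adjusted p = 0.0715, limma). The log2 fold changes are on the log2(FPKM + 1) scale after division by a median-of-ratios size factor, and a gene was called at an adjusted p under 0.05. Without cKO 2 the value was 0.34 and passed (adjusted p = 0.00171). Its direction depended on the scaling, being -0.29 (adjusted p = 0.011) with all libraries at the same FPKM total, where the median of all genes was -0.45, and -0.52 (adjusted p = 0.000484) after quantile normalization.

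Fyn, the other Src family kinase abundant in T cells, went the other way. *Fyn* (chr10:39368855-39565381, plus strand, GRCm38) had an FPKM of 51.0, 51.2 and 49.9 in WT and of 22.8, 25.8 and 24.7 in cKO. The groups did not overlap, and the highest cKO value, in cKO 2, was far below the lowest WT value. The fold change was -1.03 on the log2 scale (SE 0.065, 95% interval -1.18 to -0.87, adjusted p = 0.000101, limma). It stayed between -1.57 and -0.98 over all alternatives, with adjusted p from 2.14e-05 to 0.0731, the highest being that of a correction for GC content and length joined to averaging the WT libraries into 1 sample.

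*Fyn* transcripts are known to carry one of a pair of alternative exons in front of the kinase domain, with one form prevailing in brain and the other in T cells, and an FPKM per gene symbol does not separate them. The quantitative RT-PCR primers that the study designed for *Fyn* are shown because they fall on this choice.
*Fyn* forward: aagggatgccaaggcttacc
*Fyn* reverse: aaatgggctcctcagacacg
The forward primer matched chr10:39529482-39529501 in the coding part of exon 9 of 1 GENCODE transcript, and the reverse primer chr10:39532149-39532168 in exon 10 of that transcript, for a product of 273 nucleotides. That exon 9 (chr10:39529437-39529601, 165 nucleotides) was annotated in 1 of 9 *Fyn* transcripts, whereas 4 coding transcripts held in its place an exon of 156 nucleotides (chr10:39529919-39530074) without a match to the forward primer. The exon with the reverse primer was common to 6 transcripts. The primer pair and the FPKM value of *Fyn* thus cover different sets of annotated transcripts.

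Within a library the ratio of *Lck* to *Fyn* does not depend on a factor by which all its values are divided. It was 19.97, 19.8 and 20.3 in WT and 57.9, 43.1 and 50.5 in cKO, so that the lowest cKO ratio was far above the highest WT ratio. On the log2 scale WT averaged 4.32 and cKO 5.65 ± 0.21 (SD, n = 3), which differ by 1.32, with a two-sided exact permutation p = 0.1, the smallest that 3 against 3 libraries can give. With 1 cKO library left out the difference was between 1.22 and 1.43. Quantile normalization, which moves genes of different level unequally, brought it to 0.63 (exact permutation p = 0.1).

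**Figure D2:**
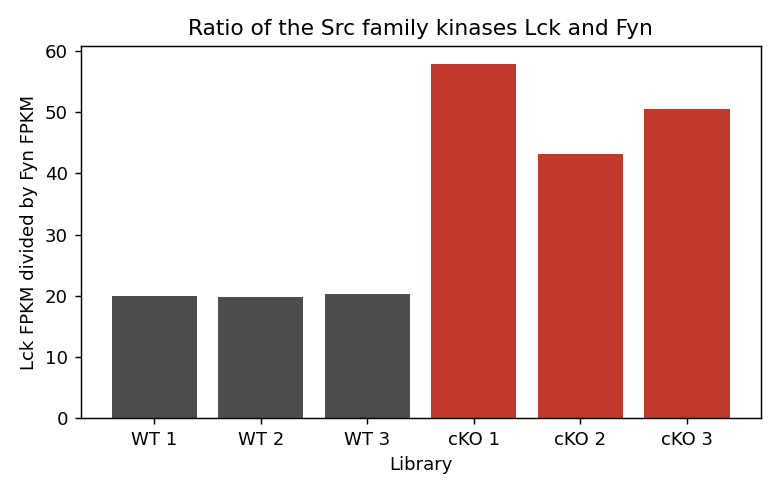
Ratio of the *Lck* FPKM to the *Fyn* FPKM in each of the 6 libraries, as bars from 0, grey for WT and red for NSrp70-cKO. WT bars stand between 19.8 and 20.3 and cKO bars between 43.1 and 57.9.

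ZAP-70, the kinase that binds the phosphorylated receptor chains, showed a small difference that did not pass the test. *Zap70* (chr1:36761798-36782818, plus strand) had an FPKM of 123, 121 and 118 in WT and of 115, 90.1 and 111 in cKO. All cKO values lay below the WT values, with cKO 2 the lowest. The log2 fold change was -0.20 (SE 0.106, 95% interval -0.45 to 0.05, adjusted p = 0.135, limma). *Zap70* passed the test at the same FPKM total (-0.76, adjusted p = 0.000133) and after quantile normalization (-0.56, adjusted p = 0.000692), and turned to 0.23 (adjusted p = 0.0914) after correction for GC content and length.

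Tec, which names a kinase family that phosphorylates PLCγ1, was the least abundant member. *Tec* (chr5:72755716-72868483, minus strand) had an FPKM of 14.5, 13.9 and 15.3 in WT and of 12.9, 20.2 and 15.5 in cKO, and the groups overlapped. The log2 fold change of 0.12 (SE 0.144, 95% interval -0.22 to 0.46, adjusted p = 0.478, limma) rested on cKO 2, without which it was -0.03. *Txk*, another kinase of that family, stood at 29.8 to 31.5 in WT and 27.6 to 32.6 in cKO and was not called (log2 fold change 0.01, 95% interval -0.18 to 0.20).

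Pyk2, the product of *Ptk2b*, is a kinase of the focal adhesion kinase family that is phosphorylated after TCR ligation and that Fyn is known to act on. The FPKM of *Ptk2b* (chr14:66153257-66281052, minus strand) was 46.5, 47.1 and 46.5 in WT and 23.7, 22.8 and 22.2 in cKO. The 3 cKO values were close to each other and far from the WT values. On the log2 scale the change was -0.996 (SE 0.059, 95% interval -1.13 to -0.86, adjusted p = 8.85e-05, limma), -1.54 at the same FPKM total and -0.67 after correction for GC content and length. Its relative *Ptk2*, which encodes focal adhesion kinase, was near the filter limit with 1.36 to 1.46 in WT and 0.978 to 1.21 in cKO, and was not called (log2 fold change -0.19, adjusted p = 0.0851).

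The primers for *Ptk2b* are shown with their place, since they sit near the start of the coding sequence.
*Ptk2b* forward: tcctcctgagtgggcgaata
*Ptk2b* reverse: agagccatgccttcactgac
They matched coding sequence in exon 3 (chr14:66190199-66190218) and exon 5 (chr14:66187467-66187486), with a product of 307 nucleotides, in 5 of 8 annotated transcripts and 4 of 5 coding ones.

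LAT, the membrane adaptor on which the complex assembles, stood just below *Lck* in WT. *Lat* (chr7:126363824-126369570, minus strand) had an FPKM of 1011, 1009 and 994 in WT and of 808, 1119 and 965 in cKO. The cKO values spread to both sides of the WT values. A log2 fold change of -0.07 (SE 0.135, 95% interval -0.39 to 0.25, adjusted p = 0.65, limma) was fitted, which turned to 0.04 without cKO 1. *Lat* passed the test as lower at the same FPKM total (-0.64, adjusted p = 0.00789) and after quantile normalization (-0.81, adjusted p = 0.00371).

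SLP-76, the cytosolic adaptor encoded by *Lcp2* that binds LAT through Gads, was the only member called higher. *Lcp2* (chr11:34046920-34092295, plus strand) had an FPKM of 102, 102 and 103 in WT and of 174, 141 and 157 in cKO, with no overlap. The log2 fold change was 0.61 (SE 0.091, 95% interval 0.39 to 0.82, adjusted p = 0.00119, limma). It lost the call with all libraries at the same FPKM total (0.05, adjusted p = 0.589) and on averaging the WT libraries into 1 sample (adjusted p = 0.0824), and was 0.22 after quantile normalization. *Lcp2* shares 282 exonic bases with a gene on the opposite strand, *4930469K13Rik*, and whether fragments of these strand-specific libraries were counted by strand is not stated. *Grap2*, which encodes Gads, was called lower at 105, 107 and 104 in WT and 98.7, 84.0 and 86.5 in cKO (log2 fold change -0.23, adjusted p = 0.0408, and -0.02 after correction for GC content and length).

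PLCγ1, the effector that cleaves PIP2 into the messengers IP3 and diacylglycerol, fell. *Plcg1* (chr2:160731300-160775760, plus strand) had an FPKM of 55.6, 55.5 and 55.8 in WT and of 28.7, 28.6 and 23.0 in cKO. The groups did not overlap, and cKO 3 was the lowest. *Plcg1* had a log2 fold change of -1.04 (SE 0.093, 95% interval -1.26 to -0.82, adjusted p = 0.000205, limma), -1.58 at the same FPKM total and -0.65 after correction for GC content and length. Its exons share 379 bases with *Zhx3* and 248 with *Gm27206*, both on the opposite strand. *Plcg2*, the isoform of B cells, stayed under the filter at 0.603 to 0.752 in all libraries.

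The primers for *Plcg1* fall near the end of its coding sequence and are shown for that.
*Plcg1* forward: gtgaagacctggagttggcc
*Plcg1* reverse: gaggcggttgtctccattga
They matched exon 30 (chr2:160761593-160761612) and exon 32 (chr2:160762114-160762133), with a product of 281 nucleotides, in 5 of 12 annotated transcripts and 2 of 4 coding ones.

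Vav1, the exchange factor that activates Rac and links SLP-76 to actin, was not called. *Vav1* (chr17:57279100-57328031, plus strand) had an FPKM of 94.7, 94.2 and 94.9 in WT and of 90.5, 73.2 and 87.4 in cKO. The cKO values were all below the WT values, with cKO 2 the farthest. Its log2 fold change was -0.18 (SE 0.094, 95% interval -0.40 to 0.04, adjusted p = 0.128, limma). *Vav1* passed the test at the same FPKM total (-0.74, adjusted p = 0.000116) and after quantile normalization (-0.50, adjusted p = 0.000863), and was at 0.02 after correction for GC content and length.

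Counted together, 3 of the 9 were lower and 1 was higher by this test, beside 29.8% lower and 35.8% higher among all genes tested. All cKO values were below all WT values for 5 of the 9 (33.3% of all genes tested) and above them for 2 (39.2%). The median log2 fold change was -0.18 over the 9 genes and 0.04 over all genes tested. With 9 genes these counts are a description, and nothing particular to the group is read from them.

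The number called in the group depended on scaling more than the direction of *Fyn*, *Plcg1* and *Ptk2b* did. With all libraries at the same FPKM total, 7 were lower (59.9% of all genes) and 0 higher (8.74%), with 0 also higher at an unadjusted p under 0.05. After quantile normalization 7 were lower (29.4%) and 1 higher (33.7%), *Lck*, *Zap70*, *Lat* and *Vav1* joining the lower ones. On averaging the WT libraries into 1 sample, *Fyn*, *Plcg1* and *Ptk2b* were still lower (8.74% of all genes were) and 0 were higher (7.16%), with 1 higher at an unadjusted p under 0.05. After correction for GC content and length, 3 were lower (25.2%) and 2 higher (31.8%), *Lck* joining *Lcp2*.

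**Figure D3:**
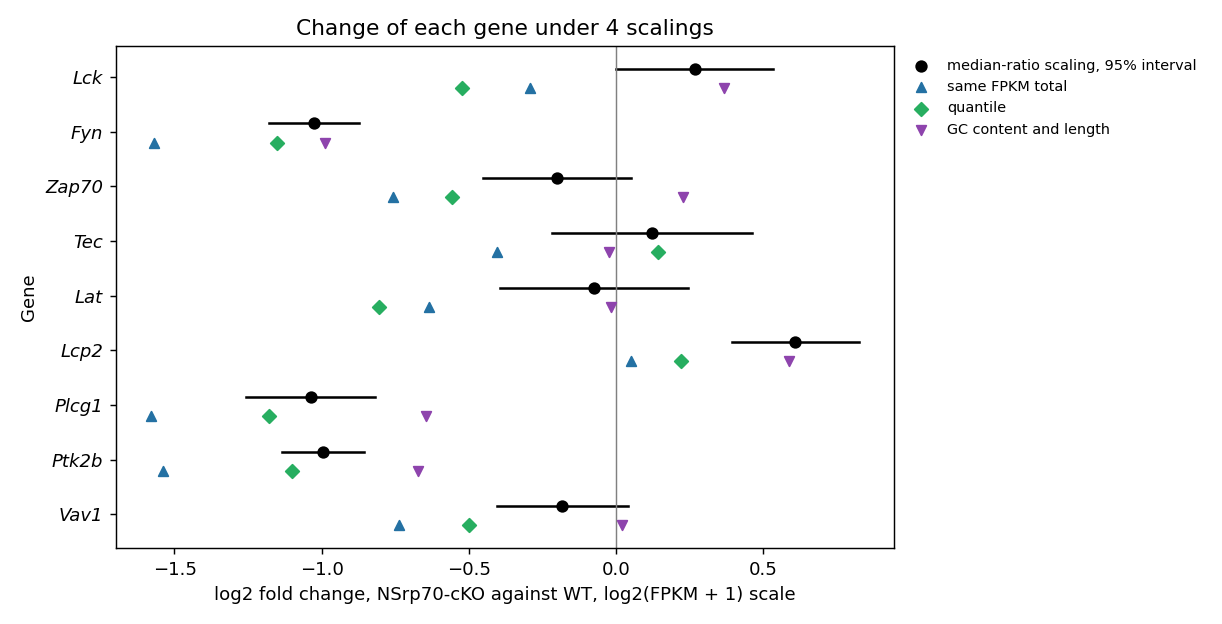
Log2 fold change of each gene in NSrp70-cKO against WT on the log2(FPKM + 1) scale, as black circles with 95% intervals for median-ratio scaling and as coloured symbols without intervals for 3 other settings. *Fyn*, *Plcg1* and *Ptk2b* stay left of 0 in all 4, whereas *Lck*, *Zap70*, *Tec* and *Vav1* change sides.

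The make-up of the 9 mRNAs shifted. Of their summed FPKM, which was 2489 to 2518 in WT and 2596 to 2653 in cKO (0.471 to 0.481% of the FPKM total in WT and 0.312 to 0.375% in cKO), *Lck* took 40.5% on average in WT and 46.7% in cKO, and *Lat* 40.1% and 36.7%. *Lcp2* went from 4.08% to 5.99%, and *Fyn*, *Plcg1* and *Ptk2b* from 2.02, 2.22 and 1.86% to 0.93, 1.02 and 0.87%. The shares of *Lat* overlapped between the groups, with 42.5% in cKO 2.

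The promoters of *Fyn*, *Plcg1* and *Lcp2* are shown because these genes were called in different directions. RefSeq gave promoters for 8 of the 9 genes on GRCm38.p6, with none for *Ptk2b*. The 250 bases before the start had a GC content of 67.2% for *Fyn*, 71.2% for *Plcg1* and 41.2% for *Lcp2*, beside a median of 52.4% over all promoters. The 100 bases just before the nearest annotated exon of each follow, with matches to a GC box or a CCAAT box in capitals.
*Fyn*, chr10:39369664-39369763, plus strand: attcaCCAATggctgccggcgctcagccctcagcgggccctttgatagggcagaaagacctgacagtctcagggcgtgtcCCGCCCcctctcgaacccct
*Plcg1*, chr2:160731200-160731299, plus strand: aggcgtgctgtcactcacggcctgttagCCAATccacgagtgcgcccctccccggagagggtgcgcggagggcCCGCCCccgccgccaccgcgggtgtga
*Lcp2*, chr11:34046820-34046919, plus strand: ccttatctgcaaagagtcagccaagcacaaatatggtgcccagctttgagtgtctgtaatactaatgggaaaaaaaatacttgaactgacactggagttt
Both strands were searched. The GC box was written as GGGCGG, which occurred in 32.7% of all promoters of this length. The share was 33.8% for the CCAAT box, taken as those letters, and 12.4% for the TATA box, written as TATAAA. *Fyn* and *Plcg1* each held 1 GC box and 1 CCAAT box, *Lcp2* held neither, and none of the 3 held the TATA box. Members that were not called had GC-rich promoters too. *Tec* (68.4% GC) held 2 GC boxes, *Vav1* (60.8%) held 1 and *Lat* (65.2%) held 0, each with 0 CCAAT boxes. *Lck* and *Zap70* had more than 1 promoter each. A *Lck* promoter (58.0%) held 1 GC box and a *Zap70* promoter (58.8%) held 1 CCAAT box, and their other promoters held neither. A link between these promoter traits and the direction of change was not tested. Over 10245 genes the fold change fell with the GC content of the transcript, not of the promoter (Spearman rho -0.334), and with transcript length (-0.296). That is a description across genes, which are not independent. Transcript GC content was 49.3% for *Fyn*, 54.1% for *Plcg1* and 46.8% for *Lcp2*. Whether fold change goes with promoter GC content was not tested.

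The other genes of the pathway were taken from 5 lists of 91 genes, of which 79 passed the filter. Of these, 26 were called lower and 27 higher, beside 29.8% lower and 35.8% higher among all genes tested, with a median log2 fold change of -0.02. At the same FPKM total 57 were lower and 6 higher, beside 59.9% lower and 8.74% higher among all genes. After quantile normalization 38 were lower and 9 higher, beside 29.4% and 33.7%. The split between lower and higher thus moved with the scaling, and at the same FPKM total that of all genes moved as well. On averaging the WT libraries into 1 sample, 7 were lower and 4 higher. At the same FPKM total, where the median of all genes was -0.45, the genes called higher and named below by size lay between -0.11 (*Pak1*) and 0.56 (*Fgr*), and those called lower between -1.62 (*Vav2*) and -0.85 (*Cd28*).

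Among 9 receptor chains and coreceptors, which start the signal, 7 were called higher and 1 lower, beside 35.8% and 29.8% of all genes tested. Their median log2 fold change of 0.49 turned to -0.07 at the same FPKM total (2 lower, 1 higher, beside 59.9% and 8.74%). After quantile normalization it was -0.11 (4 lower, 0 higher, beside 29.4% and 33.7%). With the WT libraries averaged into 1 sample limma called 0 of these genes in either direction, with 1 higher and 0 lower at an unadjusted p under 0.05. *Cd8b1*, the beta chain of CD8, had an FPKM of 1248, 1275 and 1240 in WT and of 2603, 1809 and 2426 in cKO (log2 fold change 0.84, adjusted p = 0.00364, limma, but -0.03 after quantile normalization). *Cd3d*, a CD3 chain, went from 433 to 453 in WT to 618 to 920 in cKO (0.78, and 0.12 after quantile normalization). *Cd28*, the costimulatory receptor, was the lower one at 89.7, 88.9 and 88.7 in WT and 73.4, 71.2 and 73.3 in cKO (-0.29, adjusted p = 0.0041).

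Of 12 other kinases of the same families, 5 passed the filter and 1 was called, beside 29.8% lower and 35.8% higher among all genes tested. It was *Fgr*, a Src family kinase known from myeloid cells, at 2.14 to 2.57 in WT and 5.16 to 6.79 in cKO (log2 fold change 0.99, adjusted p = 0.000479). Among 8 myeloid and dendritic cell markers, the sums were 22.2 to 24.6 in WT and 15.3 to 17.1 in cKO. Of the 5 that passed the filter, none was called higher and 1 was called lower, *Cd74* (log2 fold change -0.83, adjusted p = 0.00849, limma). *Itgam* (1.27 to 1.56 in WT, 1.64 to 1.83 in cKO) was above WT in every cKO library but was not called.

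The 23 other adaptors tested split into 9 lower and 10 higher, beside 29.8% lower and 35.8% higher among all genes tested. *Sh3bp2*, an adaptor that binds ZAP-70 and PLCγ, went from 8.64 to 9.22 in WT to 3.11 to 4.30 in cKO (log2 fold change -1.07, and -0.67 after correction for GC content and length). *Lime1*, a membrane adaptor that Lck phosphorylates, was at 30.1, 29.6 and 30.3 in WT and at 11.6, 22.1 and 12.2 in cKO (-0.99), with cKO 2 apart from the other cKO libraries. On the higher side were *Trat1* (111 to 120 in WT, 209 to 235 in cKO, 0.95, and 0.39 at the same FPKM total), which encodes the TCR-interacting molecule TRIM, and *Nck1* (26.97 to 26.99 in WT, 44.8 to 50.1 in cKO, 0.78, and 0.24 at the same FPKM total), which links SLP-76 to actin.

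Among 23 enzymes and exchange factors downstream of the adaptors, 12 were lower and 4 higher, with a median log2 fold change of -0.24. Of all genes tested, 29.8% were lower and 35.8% higher. At the same FPKM total 21 of the 23 were lower and 1 higher (median -0.75), beside 59.9% and 8.74% of all genes. After quantile normalization 15 were lower and 2 higher, beside 29.4% and 33.7%. After correction for GC content and length 8 were lower and 6 higher (median -0.04), beside 25.2% and 31.8%. On averaging the WT libraries into 1 sample the median was -0.24. *Vav2*, the relative of *Vav1*, fell from 9.77 to 10.7 in WT to 3.85 to 4.42 in cKO (log2 fold change -1.14, adjusted p = 0.000111, and -0.55 after correction for GC content and length). *Itpr3*, a receptor for the IP3 that PLCγ1 makes, fell from 13.5 to 14.2 in WT to 5.85 to 6.84 in cKO (-1.01, and -0.26 after that correction). *Cdc42*, a GTPase of actin assembly (176 to 181 in WT, 263 to 342 in cKO, 0.79, and 0.23 at the same FPKM total), and its effector kinase *Pak1* (12.2 to 13.3 and 15.8 to 19.5, 0.42, but -0.11 at the same FPKM total) were higher.

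Of 19 regulators of the proximal kinases, 4 were lower and 5 higher, beside 29.8% lower and 35.8% higher among all genes tested. *Csk*, the kinase that phosphorylates the inhibitory tyrosine of Lck and Fyn, had an FPKM of 108, 108 and 106 in WT and of 65.7, 60.6 and 64.3 in cKO (log2 fold change -0.75, adjusted p = 0.000184, and -0.22 after correction for GC content and length). *Sh2b3*, which encodes the inhibitory adaptor Lnk, fell from 9.63 to 10.2 in WT to 4.70 to 5.95 in cKO (-0.80, and -0.19 after that correction, no longer called). *Hsp90aa1* (182 to 185 in WT, 375 to 427 in cKO, 1.11) and *Cdc37* (107 to 108 and 130 to 230, 0.72, and 0.16 at the same FPKM total), the chaperone and cochaperone of many kinases, were higher. *Ptprc*, which encodes CD45, the phosphatase that removes that phosphate, was at 386 to 390 in WT and 386 to 449 in cKO and was not called (0.10, adjusted p = 0.32).

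**Figure D4:**
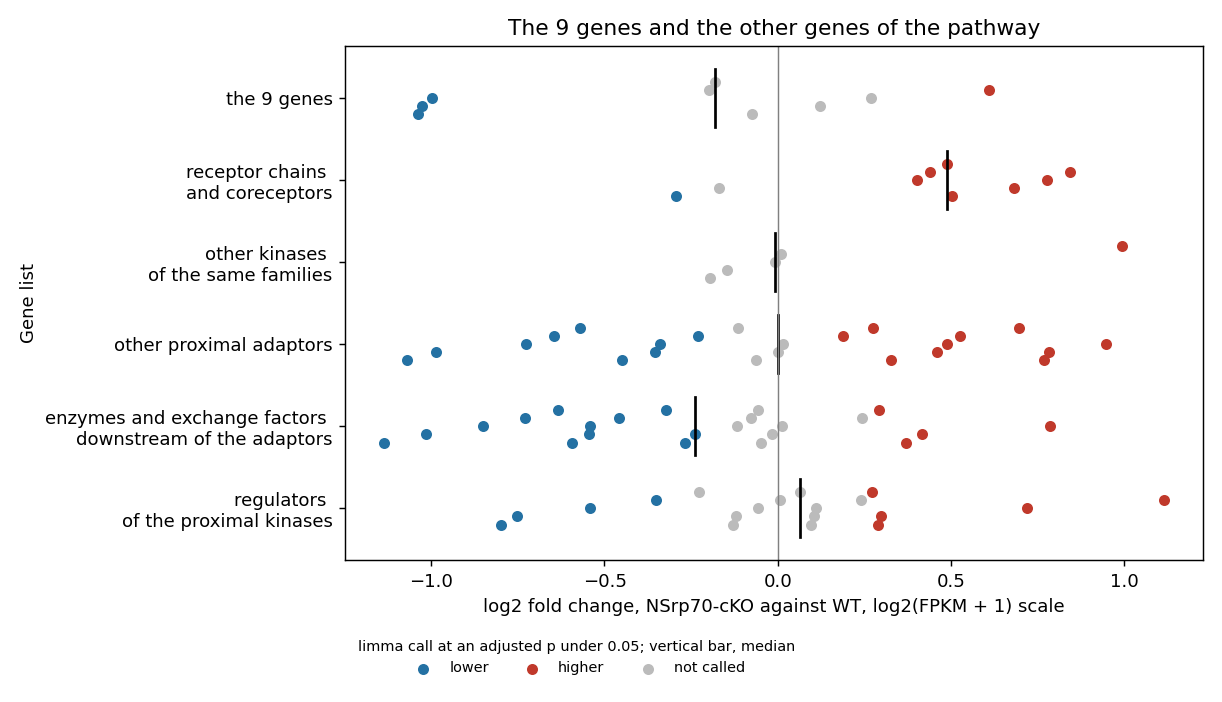
Log2 fold change of each tested gene in NSrp70-cKO against WT on the log2(FPKM + 1) scale, by list, with the 9 genes on top, blue for called lower, red for called higher, grey for not called and a vertical bar at the median of each list. Medians lie at -0.18 for the 9 genes, 0.49 for receptor chains, which turned to -0.07 at the same FPKM total and -0.11 after quantile normalization, and -0.24 for downstream enzymes.

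Likeness of pattern was measured by Pearson's r of log2(FPKM + 1) over the 6 libraries, which share the genotype difference, and is a description. Among the pathway genes *Fyn* was most like *Pag1*, the membrane anchor of Csk (r = 0.999), whose FPKM was 41.3 to 41.9 in WT and 25.3 to 27.5 in cKO. *Ptk2b* was most like *Vav2* (0.997), *Plcg1* most like *Sh3bp2* (0.996), *Lck* most like *Cd4* (0.998) and *Lcp2* most like *Cd8a* (0.993). *Zap70* was nearest to *Vav1* (0.991), *Vav1* to *Cd3e* (0.996), *Tec* to *Ptprc* (0.895) and *Lat* to *Vav3* (0.789). Over all 10326 genes the nearest were *Selplg* for *Lck*, *Ccdc64* for *Fyn*, *Ogfod3* for *Zap70*, *Pi4k2b* for *Tec*, *Crybg3* for *Lat*, *Snrnp200* for *Lcp2*, *Rasal3* for *Plcg1*, *Sf1* for *Ptk2b* and *Ube2r2* for *Vav1*, with r between 0.993 and 1.00.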

How the data were processed

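Sorted DP thymocytes were sequenced in 3 WT and 3 cKO libraries, grouped by their titles. Per the study's methods and the submitters' processing notes, poly(A) libraries from a directional (strand-specific) kit were mapped to mm10 with TopHat, and the authors deposited FPKM values from Cufflinks, 1 per gene symbol and library. Versions of TopHat and Cufflinks, the annotation and the strand setting of the counting are not given in the sources used here. The authors' DESeq2 test needs counts and was not repeated.

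Libraries were scaled by median-of-ratios size factors (1.00 to 1.02). Genes had to reach an FPKM of 1 in 3 libraries or more, and their log2(FPKM + 1) was modelled on genotype using limma 3.58.1 and R 4.3.3 (lmFit, eBayes with a trend), with Benjamini-Hochberg adjustment over all 10326 genes and a threshold of 0.05. On simulated data for this comparison, of 10326 genes, the fit recovered 91 of 100 simulated at 2-fold and 99 of 100 at 4-fold. It called 10 of 10126 unchanged genes. Few genes were changed in the simulation, whereas 29.8% were called lower and 35.8% higher in the data. The rates therefore describe the simulated data and do not give the error rate of the fit to the real libraries. The depth estimate uses the FPKM worth of 1 fragment at 2614 genes with a single transcript, with an assumed fragment length of 200 nucleotides. Gene positions and transcripts came from GENCODE mouse release M21 on GRCm38, the assembly of mm10. Of the symbols, 22118 matched directly, 664 through synonyms, 48 to several genes and 353 to none. Primers came from the study's supplementary table and promoters from RefSeq (GRCm38.p6). Python 3.11.15, numpy 2.4.6, pandas 2.3.3, scipy 1.17.1 and matplotlib 3.10.9 were used.

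Members and lists were chosen with earlier results of these data known. All 9 members were named, with up to 2 genes in each direction per pathway list, called, not overlapping and largest in log2 fold change, and the genes most like each member. Genes named beside them for their relation to a member (*Txk*, *Ptk2*, *Grap2*, *Plcg2* and *Ptprc*) and the marker genes were added after their values were seen. Alternatives were no size factors, the same FPKM total, quantile normalization, a pseudocount of 0.1, no filter, a filter of 5, no trend, a replicate block, WT libraries averaged to 1 sample, group weights, a correction for GC content and length (natural splines, 5 degrees of freedom) and each library left out. The last correction together with WT as 1 sample was chosen after seeing the data, as were quantile normalization and that correction for the ratio of *Lck* to *Fyn*. *Igkc* of the B cell markers was not analysed here, and some genes of the lists are not reported here.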

Additional observations from a re-analysis of the deposited data

How the results depend on the processing

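*Fyn*, *Plcg1* and *Ptk2b* kept their direction in all 18 alternatives and their call in 17. The exception was the correction for GC content and length with WT libraries as 1 sample, chosen after seeing the data, where limma called 0 of the 9 genes lower and 0 higher (3 and 1 at an unadjusted p under 0.05) and 0 pathway genes lower and 0 higher (11 and 14 unadjusted), in a fit that called 22 genes lower and 6 higher of 10245. With the same FPKM total, 7 of the 9 genes were lower and 0 higher, and 57 pathway genes lower and 6 higher (26 and 27 with median ratios). Of all genes, 59.9% were lower and 8.74% higher with that scaling. With quantile normalization 7 of the 9 genes were lower, and 38 pathway genes were lower and 9 higher. With WT libraries as 1 sample, which leaves fewer samples, 0 of the 9 genes were higher, and 7 pathway genes were lower and 4 higher. Of the 9 genes, 2 were higher (*Lck* and *Lcp2*) without a trend, with group weights and with the correction for GC content and length. With each library left out, the 9 genes gave 3 lower throughout and 1 to 2 higher, 2 without cKO 2, and the pathway genes 22 to 28 lower and 20 to 30 higher.

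Directions turned for *Lck* (-0.29 with the same FPKM total, -0.52 with quantile normalization), *Tec* (-0.40 with the same FPKM total, -0.0246 with the GC and length correction, -0.0175 with that and WT as 1 sample, and -0.0341 without cKO 2, and up to 0.261 without cKO 1), *Lat* (0.0429 without cKO 1, and down to -0.182 without cKO 2 when 1 library is left out), *Zap70* (0.227 with the GC and length correction, 0.231 with WT as 1 sample too) and *Vav1* (0.0204 and 0.0243 with the same settings). The cause was not tested. With pseudocount 1 the log2 ratio of *Lck* to *Fyn* was 1.29, and without 1 library 1.22 to 1.43, at an exact permutation p of 0.2, the smallest those sizes allow. Chosen after seeing the data, quantile normalization gave 0.626 and the GC and length correction 1.36. Deviations from the group mean were hardly correlated between libraries of the same replicate number (-0.0223, 0.0385 and 0.0309). The WT libraries differed little beyond counting noise, so these correlations cannot decide whether the samples were paired. A replicate block left 3 of the 9 genes lower and 1 higher, and 22 pathway genes lower and 25 higher. Depth limits *Tec* most, with 417 estimated fragments in cKO 1.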
